A study of Mus musculus with 7 samples.

Results

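Small RNAs bound to 2 mutants of mouse Ago2, GKT_GKGT and PGKTP_AAAAA, were set directly against each other. Both mutants were expressed with a Flag tag in mouse embryonic stem cells that carry no Argonautes of their own, pulled down with anti-Flag and sequenced. Each mutant is represented by 1 library out of 7 in the series, the other libraries being wild-type Ago2, K566A, Q548A, R792A_C793A and an empty control. The promoter of the transgenes, the expression level of each mutant and whether the cells were 1 clone were not stated in the labels. The count table holds 1078 mature miRNA loci under 959 mature names, and each name was counted once, at its highest locus. 8 names with the counts of another name were merged into it. Of the 951 miRNAs left, 303 averaged 10 or more CPM (counts per 1000000) over the 2 libraries and were compared. Since each mutant has 1 library, the differences have no replicate check and carry no p-value, and every interval covers counting error only.

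Ago2 is the Argonaute protein that takes up a miRNA duplex, keeps a single strand as its guide and discards the other strand, the passenger. The 5' end of the guide sits in a pocket of the MID domain, where a rigid loop, the nucleotide specificity loop, faces the first base. In structures of human Ago2 this loop makes contacts that favour U and A over C and G as first base. Read as amino acid letters, the label GKT_GKGT places an extra glycine within a glycine-lysine-threonine stretch of this loop, and PGKTP_AAAAA turns the stretch and its flanking prolines into alanines. The comparison therefore asks how the bound miRNAs differ between a loop that was lengthened and one whose residues were replaced by alanines.

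The first base and arm of the following miRNAs are what the results turn on, so their mature sequences are given 5' to 3' as in RefSeq (GRCm38.p6), with the seed (bases 2 to 8) in capitals. In each of these hairpins the arms begin with different bases, and the share of the arms differed between the mutants. The positions are those of the deposited table (mm9), from the start of one arm to the end of the other, and host genes come from GENCODE M21 by name. The hairpin of miR-106b lies at chr5:138606974-138607035, in an intron of Mcm7, which encodes a subunit of the replicative helicase.
miR-106b-5p: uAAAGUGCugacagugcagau
miR-106b-3p: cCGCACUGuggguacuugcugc
The hairpin of miR-25, its neighbour within Mcm7, lies at chr5:138606560-138606619.
miR-25-5p: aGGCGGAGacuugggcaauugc
miR-25-3p: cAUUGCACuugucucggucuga
The hairpin of miR-200a lies at chr4:155429020-155429079, in an intron of Ttll10.
miR-200a-5p: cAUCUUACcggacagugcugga
miR-200a-3p: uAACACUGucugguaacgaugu
The hairpin of miR-30e lies at chr4:120445223-120445286, in an intron of Nfyc.
miR-30e-5p: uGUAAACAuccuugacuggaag
miR-30e-3p: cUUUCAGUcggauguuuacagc
The hairpin of miR-291a lies at chr7:3218933-3218990 in the miR-290 cluster, with no annotated host gene.
miR-291a-5p: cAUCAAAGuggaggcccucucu
miR-291a-3p: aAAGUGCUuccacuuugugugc
The hairpin of miR-877 lies at chr17:36097676-36097759, in an intron of Abcf1.
miR-877-5p: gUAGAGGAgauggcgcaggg
miR-877-3p: uGUCCUCUucucccuccuccca
The hairpin of miR-148b lies at chr15:103115579-103115637, in an intron of Copz1.
miR-148b-5p: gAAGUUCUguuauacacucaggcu
miR-148b-3p: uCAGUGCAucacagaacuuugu

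The GKT_GKGT library held 49657602 counts and the PGKTP_AAAAA library 24921643. A count of 0 therefore allows up to 3 counts, or 0.0604 CPM in GKT_GKGT and 0.120 CPM in PGKTP_AAAAA. At least 1 count was found for 764 miRNAs in GKT_GKGT and for 681 in PGKTP_AAAAA, and 95 miRNAs were counted in GKT_GKGT only against 12 in PGKTP_AAAAA only. The empty control held 33463 counts, and over the tested miRNAs its count came to a median of 0.179% of the lower of the 2 mutant counts. The highest such value was 10.5%, for miR-203-3p, followed by 3.19% for miR-673-3p. The embryonic stem cell label was checked against miRNAs known to mark other cells. Of 22 miRNAs listed as markers of other tissues 6 were tested, and their summed level was 3927 CPM in GKT_GKGT and 4098 CPM in PGKTP_AAAAA, mostly miR-128-3p with 3620.3 CPM in GKT_GKGT and 3646 CPM in PGKTP_AAAAA. The liver miRNA miR-122-5p had 0.765 CPM in GKT_GKGT and 1.16 CPM in PGKTP_AAAAA. The 18 fibroblast markers summed to 1979.9 CPM in GKT_GKGT and 1469 CPM in PGKTP_AAAAA.

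In both libraries the main cargo was the same. miR-292-5p, which comes from the leading miRNA cluster of mouse embryonic stem cells, miR-290, made up 70.5% of the counts in GKT_GKGT and 69.5% in PGKTP_AAAAA, a log2 ratio of 0.02. Its share in the empty control was 65.6%. Across the 303 miRNAs the CPM of the 2 libraries had a Spearman correlation of 0.88, as a description of miRNAs that are not independent replicates.

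A miRNA was called higher or lower in GKT_GKGT where the exact 95% interval of its CPM ratio lay wholly beyond 2-fold. By this rule 87 of the 303 miRNAs were higher in GKT_GKGT (28.7%) and 15 were lower (4.95%). The median log2 ratio of all tested miRNAs was 0.35, so the scaling bears on this split. With median-of-ratios scaling, which lowers every log2 ratio by 0.37, 61 of 302 miRNAs were higher (20.2%) and 38 were lower (12.6%). All 61 miRNAs called higher under that scaling were also higher by total counts, and all 15 called lower by total counts were lower under it too. The filter adds to the excess of higher calls: 8 tested miRNAs were under 10 CPM in GKT_GKGT alone, of which 3 were called lower, and 37 were under 10 CPM in PGKTP_AAAAA alone, of which 26 were called higher.

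Among miRNAs that averaged 100 CPM or more, the 12 that were higher by the widest margin were mostly strands that begin with C or G. Of the 127 miRNAs tested at this level, 29 begin with C, 10 with G and 15 have no assigned base. Of the 35 called higher, 16 begin with C and 7 with G. Among the 12, miR-667-5p, miR-323-3p, miR-770-3p, miR-382-5p and miR-412-5p lie in the Dlk1-Dio3 locus, where 14 of 21 U-first miRNAs were also higher. Some of these 14 were under 10 CPM in PGKTP_AAAAA. The parts of locus and first base in the ratios of the 12 were not tested. miR-667-5p, which begins with C, had 369 CPM in GKT_GKGT and 22.1 CPM in PGKTP_AAAAA, from 18314 counts in GKT_GKGT and 550 counts in PGKTP_AAAAA, a log2 ratio of 4.06 (95% interval 3.94 to 4.19). The C-first miR-323-3p had 2132 CPM in GKT_GKGT and 251 CPM in PGKTP_AAAAA, a log2 ratio of 3.09 (3.05 to 3.12). The C-first miR-106b-3p, the strand opposite a guide of the miR-17 seed family, had 7990.0 CPM in GKT_GKGT and 1227 CPM in PGKTP_AAAAA, a log2 ratio of 2.70 (2.69 to 2.72). Each of these 3 strands was more than 4-fold higher in GKT_GKGT and remained called with either scaling.
miR-667-5p: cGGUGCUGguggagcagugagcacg
miR-323-3p: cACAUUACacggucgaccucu
miR-770-3p: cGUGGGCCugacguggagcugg
miR-200b-5p: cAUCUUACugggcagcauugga

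The remaining C-first strands among these 12 were miR-770-3p, with 1482 CPM in GKT_GKGT and 292 CPM in PGKTP_AAAAA (log2 ratio 2.35), miR-200b-5p with 950.1 CPM in GKT_GKGT and 214 CPM in PGKTP_AAAAA (2.15), and miR-30a-3p with 287 CPM in GKT_GKGT and 87.2 CPM in PGKTP_AAAAA (1.72). The G-first strands were miR-330-3p, miR-382-5p and miR-298-5p. miR-330-3p had 213 CPM in GKT_GKGT and 36.4 CPM in PGKTP_AAAAA (log2 ratio 2.55), and miR-382-5p had 423 CPM in GKT_GKGT and 80.7 CPM in PGKTP_AAAAA (2.39). miR-298-5p, the most abundant G-first strand that was called higher with both scalings, had 4901 CPM in GKT_GKGT and 1452 CPM in PGKTP_AAAAA (log2 ratio 1.76). Exceptions to the C or G start were the U-first miR-412-5p (484 CPM in GKT_GKGT and 77.2 CPM in PGKTP_AAAAA, log2 ratio 2.65) and the A-first miR-501-3p (195 CPM in GKT_GKGT and 51.4 CPM in PGKTP_AAAAA, 1.93). miR-363-5p, to which no first base was assigned, had 368 CPM in GKT_GKGT and 88.2 CPM in PGKTP_AAAAA, a log2 ratio of 2.06.
miR-330-3p: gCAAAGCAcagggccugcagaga
miR-382-5p: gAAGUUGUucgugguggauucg
miR-298-5p: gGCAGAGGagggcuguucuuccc
miR-296-3p: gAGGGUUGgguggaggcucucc
miR-3062-5p: gGAGAAUGuaguguuaccguga

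At the level of 100 CPM or more, 7 miRNAs were lower in GKT_GKGT. miR-291a-3p, a guide of the miR-290 cluster that carries the seed shared with miR-302, had 1024 CPM in GKT_GKGT and 3043 CPM in PGKTP_AAAAA, a log2 ratio of -1.57. The C-first miR-25-3p had 1805 CPM in GKT_GKGT and 5032 CPM in PGKTP_AAAAA, a log2 ratio of -1.48, and its U-first relative miR-92b-3p had 3775 CPM in GKT_GKGT and 8159 CPM in PGKTP_AAAAA, a log2 ratio of -1.11. The U-first miR-127-3p, an imprinted miRNA of the Dlk1-Dio3 locus, had 5329.6 CPM in GKT_GKGT and 12762 CPM in PGKTP_AAAAA, a log2 ratio of -1.26. The other 3 were miR-26a-5p (2450.0 CPM in GKT_GKGT and 5236 CPM in PGKTP_AAAAA, log2 ratio -1.10), miR-378-3p (65.2 CPM in GKT_GKGT and 182 CPM in PGKTP_AAAAA, -1.48) and miR-485-3p (88.5 CPM in GKT_GKGT and 191 CPM in PGKTP_AAAAA, -1.11). None of the 6 with an assigned first base begins with G, but only 10 of the 127 miRNAs tested at this level do.

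A first base could be assigned to 262 of the 303 tested miRNAs from their RefSeq sequence. The 114 U-first miRNAs had a median log2 ratio of 0.17, with 21 higher and 6 lower in GKT_GKGT. The 66 A-first miRNAs had a median of 0.33, with 16 higher and 4 lower. For the 59 C-first miRNAs the median was 1.08, and 30 were higher (50.8%) against 3 lower. For the 23 G-first miRNAs it was 1.63, and 17 were higher (73.9%) with none lower, against 28.7% higher among all tested. The order of the classes by median was thus G, C, A and U. The classes overlapped widely, from -0.80 to 4.40 for G-first and from -1.63 to 4.06 for C-first miRNAs. With median-of-ratios scaling 13 G-first miRNAs were higher and 1, miR-296-3p, was lower, and 19 C-first miRNAs were higher against 5 lower, while 16 U-first miRNAs were higher and 16 lower.

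**Figure D1:**
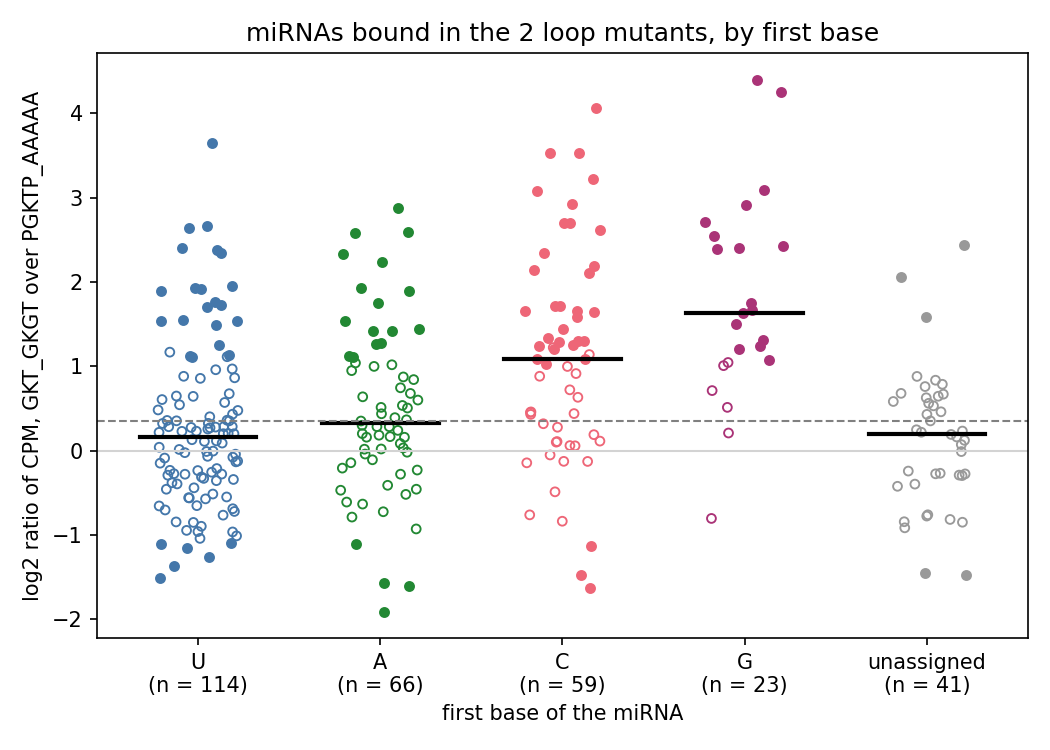
Log2 ratio of CPM in GKT_GKGT over PGKTP_AAAAA (vertical axis) for the 303 tested miRNAs, grouped by first base; each point is 1 miRNA, filled where its 95% interval lies wholly beyond 2-fold, black bars are medians and the dashed line is the median of all tested. The G-first median of 1.63 and the C-first median of 1.08 lie above the U-first median of 0.17 and the A-first median of 0.33, with overlapping ranges.

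The order of the classes was the same among the 258 miRNAs of at least 10 CPM in both libraries. There the median log2 ratio was 1.41 for 16 G-first, 0.88 for 45 C-first, 0.28 for 56 A-first and 0.11 for 104 U-first miRNAs. Of these, 12 G-first and 20 C-first miRNAs were called higher, against 61 of all 258. For miRNAs averaging 100 CPM or more the medians were 1.26 for 10 G-first, 1.08 for 29 C-first, 0.02 for 25 A-first and -0.04 for 48 U-first miRNAs.

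The G-first strands with the largest ratios were low in both libraries. miR-3062-5p had 47.1 CPM in GKT_GKGT and 2.21 CPM in PGKTP_AAAAA, from 2337 counts in GKT_GKGT and 55 counts in PGKTP_AAAAA, a log2 ratio of 4.40. miR-877-5p had 59.2 CPM in GKT_GKGT and 3.09 CPM in PGKTP_AAAAA, from 2939 counts in GKT_GKGT and 77 counts in PGKTP_AAAAA, a log2 ratio of 4.25 (95% interval 3.93 to 4.61). The 6 G-first miRNAs that were not called included miR-296-3p, the most abundant G-first strand, with 12752 CPM in GKT_GKGT and 22266 CPM in PGKTP_AAAAA and a log2 ratio of -0.80. miR-409-3p had 7851 CPM in GKT_GKGT and 3903 CPM in PGKTP_AAAAA, a log2 ratio of 1.01 whose interval reached below 2-fold. miR-203-3p, for which the empty control held 26 counts, had a log2 ratio of 0.21.

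The most abundant C-first miRNAs did not share the class median. miR-99b-5p had 16174 CPM in GKT_GKGT and 12964 CPM in PGKTP_AAAAA (log2 ratio 0.32), and miR-191-5p had 8505 CPM in GKT_GKGT and 9293 CPM in PGKTP_AAAAA (-0.13). miR-674-3p had 4170.2 CPM in GKT_GKGT and 7071 CPM in PGKTP_AAAAA, a log2 ratio of -0.76. Only miR-291a-5p among the 4 most abundant was called higher, with 14687 CPM in GKT_GKGT and 7195 CPM in PGKTP_AAAAA, a log2 ratio of 1.03 that was no longer called with median-of-ratios scaling.

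By the share of counts, the difference between the classes was smaller than by the median of miRNAs. With miR-292-5p left out, C-first miRNAs made up 23.1% of the counts in GKT_GKGT and 16.4% in PGKTP_AAAAA, and G-first miRNAs 12.7% in GKT_GKGT and 10.9% in PGKTP_AAAAA. U-first miRNAs made up 24.3% in GKT_GKGT and 27.5% in PGKTP_AAAAA, and A-first miRNAs 30.9% in GKT_GKGT and 31.9% in PGKTP_AAAAA. miRNAs without an assigned base held the remaining 9.02% in GKT_GKGT and 13.4% in PGKTP_AAAAA.

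The same grouping was made at other positions of the miRNA. At position 1 the 4 bases had medians that spanned 1.46 on the log2 scale, from U to G. At position 6 they spanned 0.71, with A highest at 0.96 over 62 miRNAs, and at the last base they spanned 0.64, with C highest at 0.91. At positions 2 to 5 and 7 to 10 the span was between 0.21 and 0.44. Position 1 thus separated the miRNAs by a wider span than any of the other 10 positions examined.

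**Figure D2:**
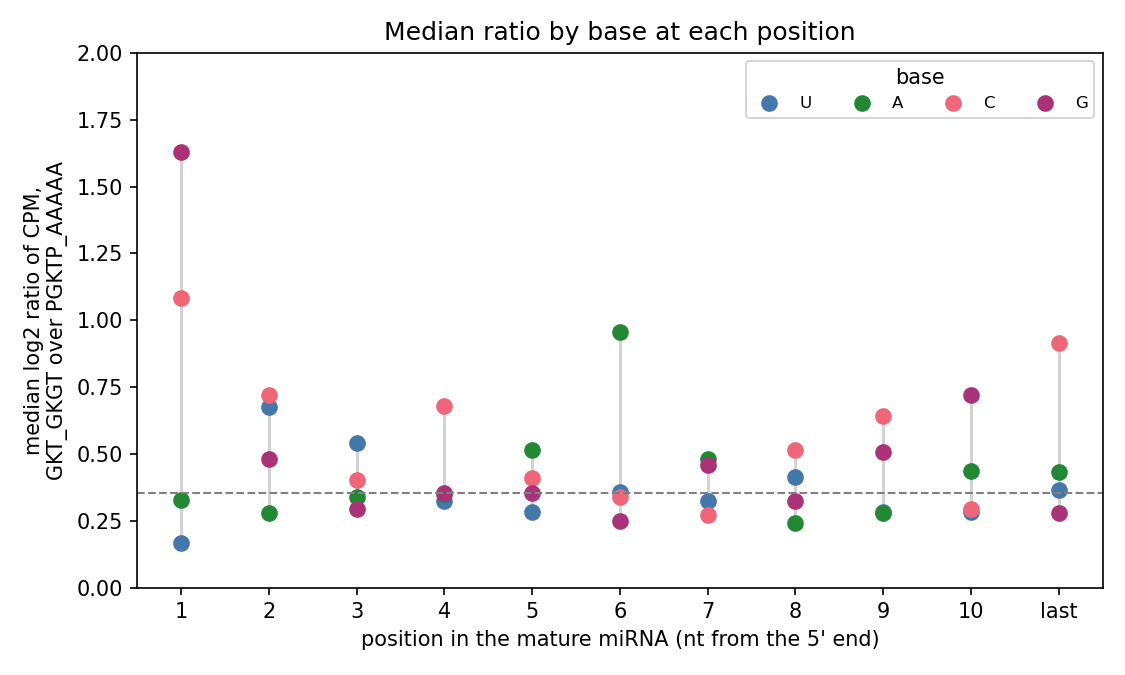
Median log2 ratio of CPM in GKT_GKGT over PGKTP_AAAAA (vertical axis) of miRNAs with each base at positions 1 to 10 and at the last base (horizontal axis); each point is the median of 1 base and the dashed line is the median of all tested. The medians span 1.46 at position 1, 0.71 at position 6 and 0.64 at the last base.

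GC content and genome location also moved with the log2 ratio, and their part in the first-base pattern was not tested beyond the following splits. Across the 262 miRNAs with a sequence, the log2 ratio had a Spearman correlation of 0.23 with GC content, and across tested miRNAs one of -0.15 with mean CPM. Among miRNAs above the median GC content of 49%, the C-first median was 1.22 (45 miRNAs), the G-first median 1.41 (16), the A-first median 0.35 (29) and the U-first median 0.13 (41). At or below it, the 7 G-first miRNAs had a median of 2.40, while the 14 C-first miRNAs had a median of 0.32, close to the 0.28 of 37 A-first and 0.20 of 73 U-first miRNAs. Of these 14 C-first miRNAs 5 were called higher, against 25 of the 45 above the median GC content; the difference between these shares was not tested.

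The position on the hairpin arms split the classes further. G-first 5p strands had a median log2 ratio of 2.07, and 13 of 14 were called higher, although miR-24-2-5p and miR-3074-5p among them overlap strands encoded at the same loci and are uncertain. Of the 8 G-first 3p strands 3 were called higher, with a median of 1.03. C-first strands showed the opposite split, with 22 of 35 on the 3p arm called higher (median 1.30) against 7 of 23 on the 5p arm (median 0.46). Some called strands passed the filter through GKT_GKGT and were under 10 CPM in PGKTP_AAAAA. These were the G-first miR-3062-5p, miR-877-5p, miR-148b-5p, miR-23b-5p and miR-183-3p, and the C-first miR-664-5p. Among the C-first 3p strands they were miR-3077-3p, miR-7a-1-3p, miR-7a-2-3p, miR-744-3p, miR-3067-3p, miR-760-3p, miR-1981-3p and miR-326-3p. The arm split was not repeated at 10 CPM or more in both libraries.

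The Dlk1-Dio3 locus, an imprinted region on chromosome 12 with a large miRNA cluster, had a high median log2 ratio also for its U-first miRNAs. Of its 102 listed miRNAs 53 were tested, and 29 were higher (54.7%, against 28.7% of all tested) and 2 lower in GKT_GKGT, with a median log2 ratio of 1.26 against 0.35 for all tested. With median-of-ratios scaling 24 were higher and 2 lower, where 20.2% of all tested were higher. Here the 21 U-first miRNAs had a median of 1.70 and 14 were higher, the 19 A-first miRNAs had a median of 0.95 and 8 were higher. Its 5 C-first miRNAs had a median of 2.35 with 4 higher, and its 4 G-first miRNAs one of 1.04 with 2 higher. Some of the higher miRNAs of the locus passed the filter through GKT_GKGT and were under 10 CPM in PGKTP_AAAAA. They were the U-first miR-667-3p, miR-1193-3p, miR-433-5p, miR-668-3p and miR-3072-3p, and the A-first miR-679-3p, miR-380-5p and miR-329-3p. The unassigned miR-487b-3p was another. The locus split was not repeated at 10 CPM or more in both libraries. Outside the list U-first miRNAs had a median of 0.01 (7 of 93 higher) and A-first miRNAs 0.17 (8 of 47), while C-first miRNAs had 1.06 (26 of 54) and G-first miRNAs 1.66 (15 of 19). miR-431, a neighbour within the locus that the list omits, had log2 ratios of 1.14 for its U-first 5p strand and 3.23 for its C-first 3p strand, and both stand in the counts outside the list. With miR-431 counted inside, 6 of 92 U-first miRNAs (median 0.00433) and 25 of 53 C-first miRNAs (median 1.03) outside the locus were higher.

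The abundant miRNAs of the locus did not move together. miR-433-3p, A-first, had 18259.6 CPM in GKT_GKGT and 9455 CPM in PGKTP_AAAAA (log2 ratio 0.95, not called), and miR-541-5p had 5057 CPM in GKT_GKGT and 5200.1 CPM in PGKTP_AAAAA (-0.04). miR-127-3p was lower in GKT_GKGT, as given above. The sum over the 53 tested miRNAs of the locus was 68412 CPM in GKT_GKGT and 51090.3 CPM in PGKTP_AAAAA.

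The ratio of the arms of a hairpin within a library does not depend on library size. Where a hairpin has 1 copy it does not depend on how much of the precursor was made either; of the 350 hairpins compared, 277 have 1 copy, and the others have an arm that is encoded at several loci or has the counts of another name. Among the 350 hairpins, each with at least 100 counts over the 2 libraries, the exact 95% interval of the odds ratio between libraries lay beyond 2-fold for 87 (24.9%). The 5p share was higher in GKT_GKGT in 33 of these (9.43%) and lower in 54 (15.4%). Pairs of first bases were read over the 288 hairpins in which each arm exceeded 3 counts in at least 1 library; all 87 called hairpins are among them (30.2%).

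Where a C-first arm faced a U-first arm, the C-first arm gained in GKT_GKGT in nearly every hairpin. The log2 ratio of the C-first over the U-first arm was higher in GKT_GKGT in 44 of 47 such hairpins, with a median difference of 2.06, and was called in 29, against 1 called in the other direction. In the 33 of them in which C begins the 3p strand, it was higher in 33 of 33, with a median difference of 2.23. In the 14 in which C begins the 5p strand, it was higher in 11, with a median difference of 1.11 and 5 called against 1. G-first over U-first arms had a median difference of 1.03 in 29 hairpins, with 24 in the same direction and 10 called against 1, and G-first over A-first arms 1.12 in 12 hairpins, with 4 called against 1. Among hairpins of 1 copy the C over U ratio was higher in 31 of 34 (median 2.04, 19 called against 1), and G over U had a median of 1.74 over 22. G over U also came to 1.801 with at least 50 counts on each arm, and G over A to 0.29 with a pseudocount of 5.

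Other pairs had medians nearer to 0. C-first over A-first arms had a median difference of 0.10 in 27 hairpins, with 7 called higher and 2 lower in GKT_GKGT. This median depended on the settings, with 0.41 at a pseudocount of 5, 0.60 with at least 50 counts on each arm, 0.42 with no limit on arms and 0.51 over hairpins of 1 copy. A-first over U-first arms had a median of 0.43 in 45 hairpins with 2 called in each direction, and C-first over G-first arms a median of -0.30 in 12 hairpins with none called higher and 2 lower. In the 53 hairpins whose arms begin with the same base, the 5p over 3p ratio had a median difference of 0.05 with 5 called in each direction. The size of the difference there had a median of 0.67 on the log2 scale, so arms that share a first base also differed between the libraries.

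**Figure D3:**
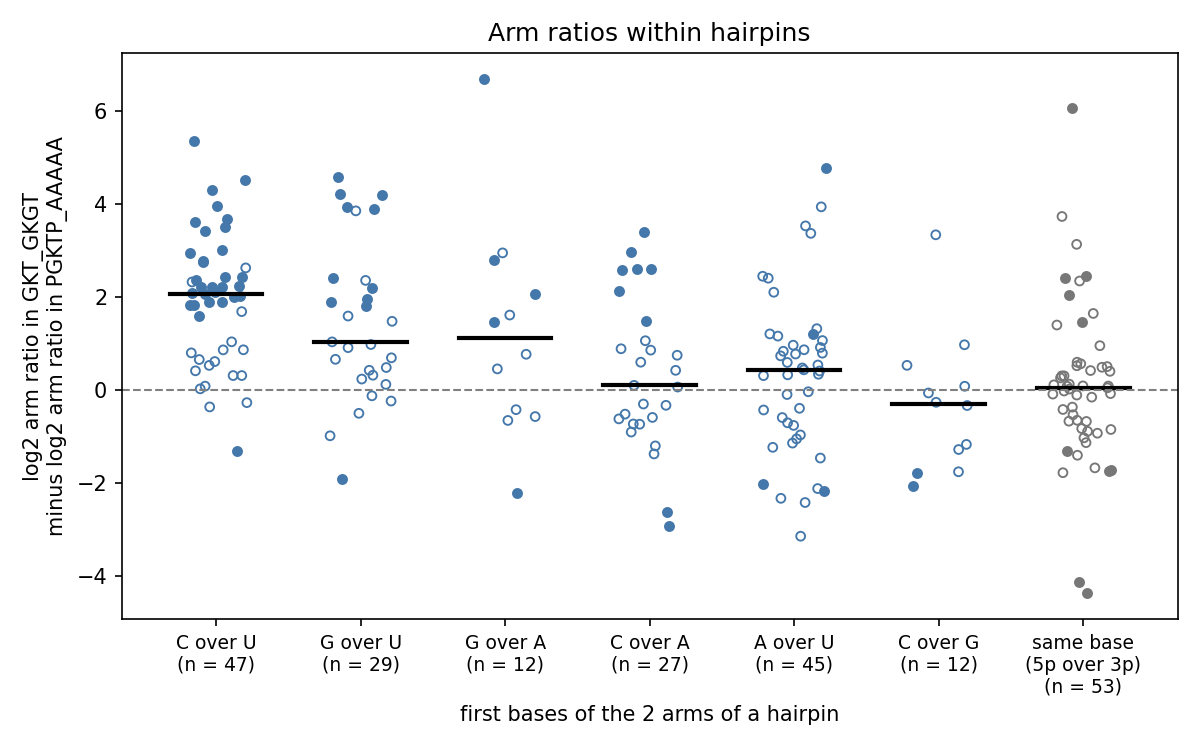
Difference in log2 arm ratio, GKT_GKGT minus PGKTP_AAAAA (vertical axis), for hairpins grouped by the first bases of their arms; each point is 1 hairpin, filled where the 95% interval of the odds ratio lies beyond 2-fold, and black bars are medians. C over U lies above 0 in 44 of 47 hairpins, with a median of 2.06, while hairpins whose arms share a first base have a median of 0.05.

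In the miR-106b hairpin the U-first 5p strand, usually described as the guide, made up 0.355% of the counts in GKT_GKGT and 3.68% in PGKTP_AAAAA, a difference of 3.42 in the log2 ratio of the C-first over the U-first arm. Both libraries held almost only the 3p strand of this hairpin. In the neighbouring miR-25 hairpin the A-first 5p strand made up 7.65% in GKT_GKGT and 1.08% in PGKTP_AAAAA. There the C-first over A-first ratio was 2.93 lower in GKT_GKGT on the log2 scale, the opposite direction for a C-first arm transcribed in the same host gene.

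Several hairpins had C-first or G-first arms with intermediate shares, where a change is visible as a share. Among hairpins of at least 1000 counts with an A-first or U-first partner arm, 34 had a C-first or G-first share of at least 10% in the higher library and at most 90% in the lower. The share was higher in GKT_GKGT in 30 of the 34 and lower in 4, and was called in 19 against 1. miR-30c-1 and miR-30c-2, as well as miR-465b and miR-465c, share the reads of an arm within their pair and do not stand for separate evidence. let-7c-2, miR-16-1, miR-194-2 and miR-196a-1 also have a 5p arm that is encoded at several loci, and let-7c-2-3p has the counts of let-7a-1-3p.

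For miR-200a, of a family known for keeping cells epithelial, the C-first 5p strand made up 78.0% of the hairpin counts in GKT_GKGT and 43.4% in PGKTP_AAAAA, so the leading strand differed between the mutants. For miR-30e the C-first 3p strand made up 92.2% in GKT_GKGT and 73.2% in PGKTP_AAAAA. For miR-291a the C-first 5p strand made up 93.5% in GKT_GKGT and 70.3% in PGKTP_AAAAA. The partner strand begins with U in miR-200a and miR-30e, and with A in miR-291a.

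Of the 10 G-first strands among these hairpins, 7 had a higher share in GKT_GKGT and 3 a lower one. For miR-3068 the G-first 3p strand made up 63.7% in GKT_GKGT and 10.3% in PGKTP_AAAAA, although from 174 counts in PGKTP_AAAAA (95% Wilson interval 6.64% to 15.8%). For miR-877, a mirtron that is cut from its host gene by splicing, the G-first 5p strand made up 28.7% in GKT_GKGT and 1.65% in PGKTP_AAAAA. For miR-148b it made up 22.6% in GKT_GKGT and 5.94% in PGKTP_AAAAA. The 3 with a lower share in GKT_GKGT were miR-211-3p, miR-679-5p and miR-434-5p, which were not called. The other exception was miR-673, called, whose C-first 5p strand made up 79.5% in GKT_GKGT and 90.7% in PGKTP_AAAAA.

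**Figure D4:**
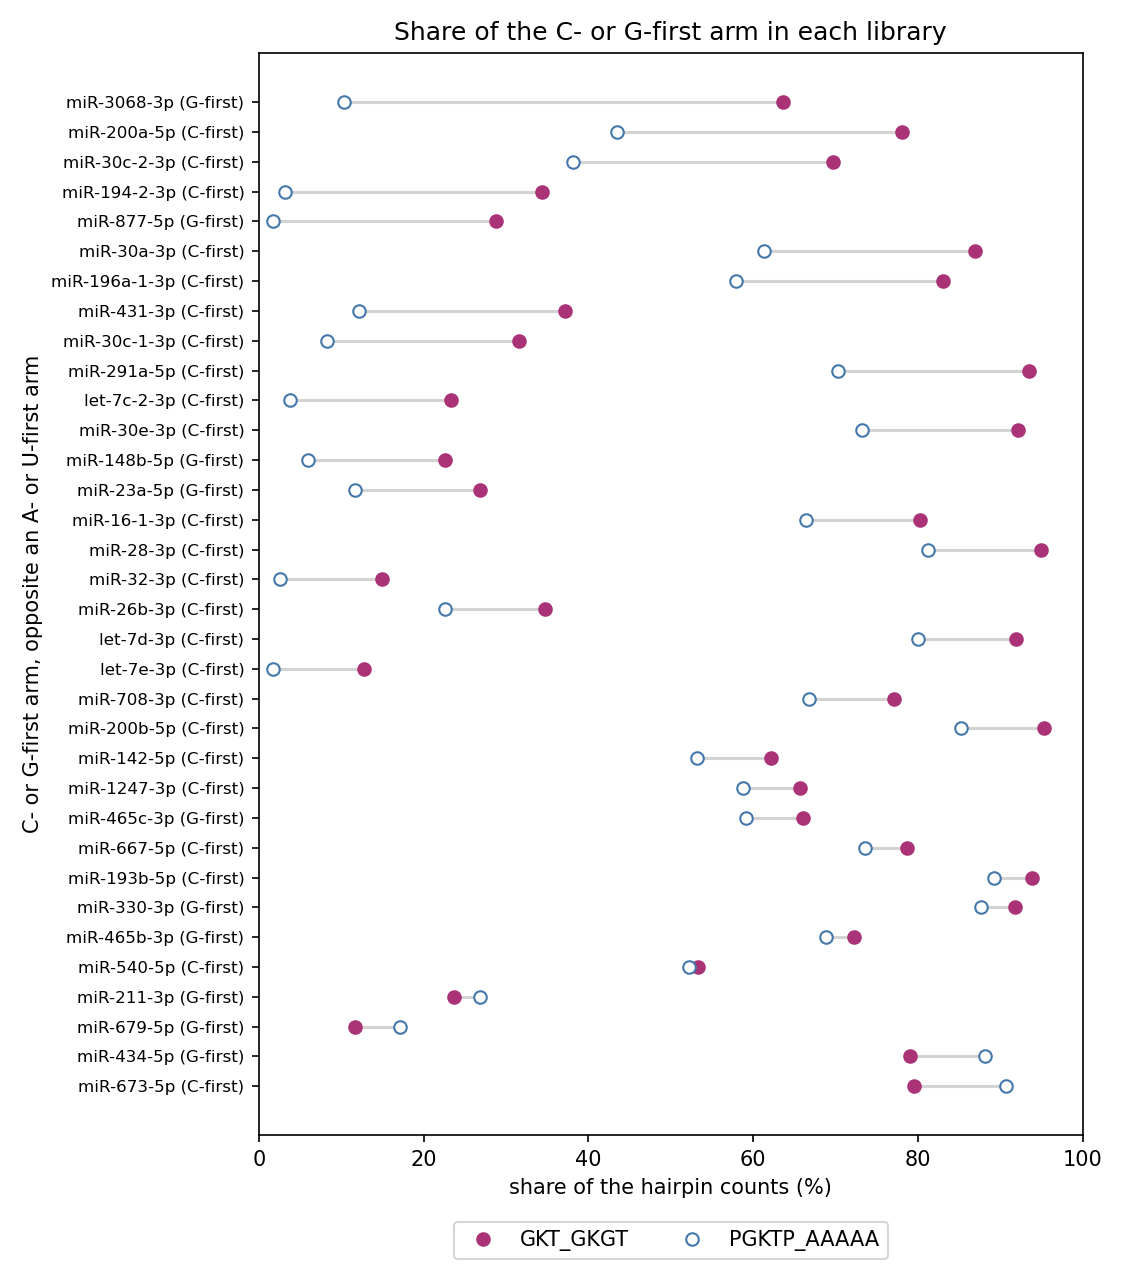
Share of the hairpin counts taken by the C-first or G-first arm (horizontal axis, %) in GKT_GKGT (filled) and PGKTP_AAAAA (open) for the 34 hairpins of intermediate share, ordered by the difference. The share is higher in GKT_GKGT in 30 hairpins, led by miR-3068-3p with 63.7% in GKT_GKGT and 10.3% in PGKTP_AAAAA, and lower in 4.

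The largest called hairpin differences included pairs in which 1 arm was nearly absent. miR-351 had 394 counts of its G-first 3p strand in GKT_GKGT and 15 in PGKTP_AAAAA, beside 25022 counts of its U-first 5p strand in GKT_GKGT and 14992 in PGKTP_AAAAA. For miR-7a-1, whose 5p strand is encoded at 2 loci, the C-first 3p strand made up 3.13% in GKT_GKGT and 0.2502% in PGKTP_AAAAA. These shares remained small in both libraries, so that the U-first guide stayed dominant. Such a difference was also seen between arms with a shared first base, since both strands of miR-665 begin with A, and its 5p strand had 46 counts in GKT_GKGT and 0 in PGKTP_AAAAA, beside 829 counts of the 3p strand in GKT_GKGT and 596 in PGKTP_AAAAA.

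Further hairpins of this kind were miR-194-2, whose C-first 3p strand made up 34.3% in GKT_GKGT and 3.13% in PGKTP_AAAAA, and miR-23b, whose G-first 5p strand made up 59.3% in GKT_GKGT and 18.02% in PGKTP_AAAAA. The 5p strands of miR-124 and miR-363 have no assigned first base. They made up 54.3% in GKT_GKGT and 10.9% in PGKTP_AAAAA for miR-124, a miRNA known from neurons, and 34.05% in GKT_GKGT and 6.97% in PGKTP_AAAAA for miR-363. The 3p strands of miR-205 and miR-218-1 had 11 and 10 counts in GKT_GKGT and 0 each in PGKTP_AAAAA. At the other end, the C over U difference nearest to 0 was 0.02, for miR-128-1, whose C-first 5p strand made up 0.0517% in GKT_GKGT and 0.0506% in PGKTP_AAAAA. The nearest among arms with a shared first base was also 0.02, for miR-339, with 86.5% on the U-first 5p strand in GKT_GKGT and 86.3% in PGKTP_AAAAA. miR-124-3p is encoded at 3 loci, and miR-194-5p, miR-218-5p and miR-128-3p at 2 each, so values for these hairpins are not those of 1 copy.

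First base and the usual role of a strand are linked, since guides often begin with U. An arm role was therefore read from libraries outside the comparison, as the arm with more counts (major) or fewer (minor) in the sum of K566A, Q548A and R792A_C793A. These libraries are of Ago2 mutants as well, so major and minor need not mean guide and passenger. miR-106b-5p, described above as the usual guide, is a minor arm here. Minor arms had a median log2 ratio of 1.04, with 36 of 74 higher and 3 lower in GKT_GKGT, against 0.23 for major arms, with 49 of 226 higher and 12 lower. Of 23 minor C-first arms 18 were higher and none lower (median 1.34), whereas of 35 major C-first arms 11 were higher and 3 lower (median 0.43). G-first miRNAs had a median of 2.81 over 6 minor and of 1.41 over 16 major arms, with 5 and 11 higher. U-first miRNAs had 0.50 over 14 minor and 0.11 over 99 major arms, and A-first miRNAs 0.37 over 25 minor and 0.30 over 41 major arms.

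Restricting to at least 10 CPM in both libraries left 16 minor C-first arms with a median of 1.32 and 13 higher, and 29 major C-first arms with a median of 0.19 and 7 higher. Of the 6 minor G-first arms only 1 met this limit, so their median rests mostly on strands that passed the filter through GKT_GKGT. Under the same limit 14 major G-first arms had a median of 1.41 with 10 higher. Among major arms the C-first median therefore lay close to the 0.20 of all major arms, and the G-first median above it.

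**Figure D5:**
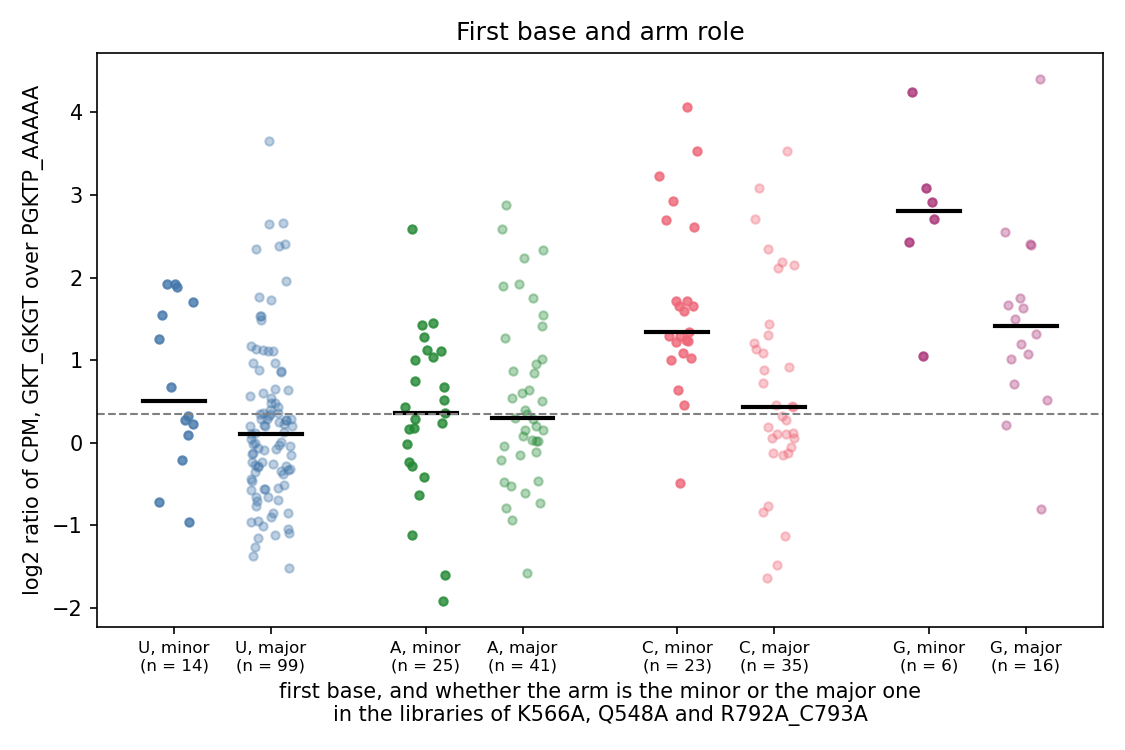
Log2 ratio of CPM in GKT_GKGT over PGKTP_AAAAA (vertical axis) by first base and by arm role, where the role comes from the K566A, Q548A and R792A_C793A libraries; each point is 1 miRNA, black bars are medians and the dashed line is the median of all tested. Minor arms lie higher than major arms for C (medians 1.34 and 0.43), the 6 minor G arms include 1 with at least 10 CPM in both libraries, and G-first major arms lie higher than U-first major arms (0.11).

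The same split was made within hairpins. Across the 288 hairpins the minor over major arm ratio was higher in GKT_GKGT in 192, with a median difference of 0.62 and 67 called against 20. Where the arms share a first base the median was 0.08 over 53 hairpins, with 6 called against 4, or 0.30 over the 33 with at least 50 counts on each arm in 1 library. C-first over U-first arms had a median difference of 2.21 in the 39 hairpins where the C-first arm is the minor one and of 1.24 in the 8 where it is the major one. G-first over U-first arms had 1.84 in 20 hairpins with a minor G-first arm and 0.42 in 9 with a major one. For A-first over U-first arms the sign followed the role, with 0.77 in 35 hairpins where the A-first arm is minor and -1.01 in 10 where it is major. The sign also followed the role for C-first over A-first arms. Their median was 0.86 in 11 hairpins where the C-first arm is minor and -0.61 in 16 where it is major.

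Strands with the same seed but a different first base offered a comparison in which the first 8 bases differ only at position 1. There were 4 such sets among miRNAs averaging 100 CPM or more, holding 15 miRNAs. All but miR-291a-5p were major arms by the role given above.
miR-20a-5p: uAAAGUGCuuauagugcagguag
miR-17-5p: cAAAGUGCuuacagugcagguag
miR-93-5p: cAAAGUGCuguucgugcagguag
miR-106a-5p: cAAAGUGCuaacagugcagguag
miR-20b-5p: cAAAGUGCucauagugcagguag
miR-363-3p: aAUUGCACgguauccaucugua
miR-92a-3p: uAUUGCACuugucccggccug
miR-92b-3p: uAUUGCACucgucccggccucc

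In the miR-17 family the log2 ratio was 0.36 for the U-first miR-20a-5p, against 0.11 for miR-17-5p, 0.10 for miR-93-5p, -0.05 for miR-106a-5p and -0.14 for miR-20b-5p, which begin with C. In the miR-92 family it was -0.72 for the A-first miR-363-3p, -0.90 for the U-first miR-92a-3p, -1.11 for the U-first miR-92b-3p and -1.48 for the C-first miR-25-3p. In both families the U-first member was higher than the C-first member in 6 of 6 pairs of these bases at this level, and the pairs share members. The limit of 100 CPM bears on this count. The U-first miR-106b-5p carries the miR-17 seed with 28.5 CPM in GKT_GKGT and 46.9 CPM in PGKTP_AAAAA, and its log2 ratio of -0.72 lay below all 4 C-first relatives. Over every tested miRNA there were 14 pairs of C-first and U-first miRNAs with a shared seed, of which the U-first member was higher in 10 and the C-first member in 4, all 4 of them against miR-106b-5p. In these pairs miR-106b-5p and miR-330-5p are minor arms, so arm role was not held constant.

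The set with the seed AAGUGCU joined miR-302b-3p (U-first, log2 ratio 0.27) to the A-first guides miR-295-3p (-0.21), miR-294-3p (-0.93) and miR-291a-3p (-1.57), a range of more than 1 within a shared first base. In the AUCAAAG set the G-first miR-291b-5p had a log2 ratio of 1.20 and the C-first miR-291a-5p one of 1.03.
miR-302b-3p: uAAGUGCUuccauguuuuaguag
miR-295-3p: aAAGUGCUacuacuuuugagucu
miR-294-3p: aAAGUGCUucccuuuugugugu
miR-291b-5p: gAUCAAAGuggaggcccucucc

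Family counts are to be read against the 28.7% higher and 4.95% lower over all tested miRNAs, to which several are close. Among the families known in embryonic stem cells, the miR-290 cluster had 13 of 14 listed miRNAs tested, a median log2 ratio of 0.16, and 3 higher and 1 lower in GKT_GKGT. Its summed level was 787797 CPM in GKT_GKGT and 800014 CPM in PGKTP_AAAAA. Within it the 3p strands miR-293-3p (34581 CPM in GKT_GKGT and 47486 CPM in PGKTP_AAAAA, log2 ratio -0.46), miR-292-3p (-0.85) and miR-294-3p had negative log2 ratios short of the 2-fold limit. With median-of-ratios scaling 0 members of the cluster were higher and 3 were lower, namely miR-291a-3p, miR-292-3p and miR-294-3p. The miR-302 cluster with miR-367, of which miR-302b-3p shares the seed of miR-294-3p, had 3 of 10 tested with a median of -0.28 and none called. miR-17-92 with its paralogs, which promote proliferation, had 20 of 28 tested with a median of 0.10, 5 higher and 2 lower, and 2 higher and 4 lower with median-of-ratios scaling.

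Families of differentiation showed the arms moving apart. Of let-7 and miR-98, which oppose the stem cell state, 8 of 20 were tested with a median of 0.26, and the 1 called higher was let-7d-3p, a C-first strand with 300.2 CPM in GKT_GKGT and 142 CPM in PGKTP_AAAAA. let-7d-3p was not called with median-of-ratios scaling. The let-7 guides let-7a-5p (log2 ratio 0.20), let-7e-5p (0.32) and let-7f-5p (0.61), all U-first, were not called, and the 1 called lower was the U-first guide let-7c-5p, with 28.5 CPM in GKT_GKGT and 63.4 CPM in PGKTP_AAAAA (-1.15). Of the miR-30 family 9 of 11 were tested, 4 higher and 1 lower, and C-first 3p strands led it: miR-30e-3p had 424 CPM in GKT_GKGT and 134 CPM in PGKTP_AAAAA (log2 ratio 1.66), and the U-first miR-30c-5p had 179 CPM in GKT_GKGT and 282 CPM in PGKTP_AAAAA (-0.65).

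Of the miR-200 family 6 of 10 were tested and 3 were higher with either scaling, with a median of 0.99. The C-first miR-200a-5p had 352 CPM in GKT_GKGT and 112 CPM in PGKTP_AAAAA (log2 ratio 1.65), while the U-first guides miR-200a-3p (99.1 CPM in GKT_GKGT and 146 CPM in PGKTP_AAAAA, -0.56) and miR-200c-3p (0.28) were not called. A U-first guide was also among the 3 higher members: miR-429-3p had 43.4 CPM in GKT_GKGT and 12.7 CPM in PGKTP_AAAAA (1.77). Of the miR-15 and miR-16 family 6 of 13 were tested, 2 higher and 1 lower. Its higher members were the C-first 3p strands miR-15b-3p (1.30) and miR-16-1-3p (1.24), neither of them called with median-of-ratios scaling. Its lower member was the guide miR-497-5p (-1.13), which also begins with C. Of miR-183, miR-96 and miR-182, 4 of 6 were tested and the 1 higher was the G-first miR-183-3p (2.43), beside miR-183-5p (0.54), miR-182-5p (-0.08) and miR-96-5p (-0.51).

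miRNAs made without Drosha or Dicer had 7 of 14 tested, with a median of 1.29 and 4 of the 7 higher, among them miR-877-5p and the G-first miR-1981-5p with 629 CPM in GKT_GKGT and 203 CPM in PGKTP_AAAAA (log2 ratio 1.63). miR-320-3p of this list had 835 CPM in GKT_GKGT and 468 CPM in PGKTP_AAAAA (0.84, not called). The Sfmbt2 cluster, a large cluster of repeated miRNAs in rodents, had 9 of 66 tested with a median of 0.22 and 1 higher, and its abundant miR-467c-5p had a log2 ratio of 0.16. The miR-181 family had 3 of 10 tested with a median of -0.02 and none called. Of the fibroblast markers 7 of 18 were tested with 1 higher, miR-196a-1-3p, a C-first strand (1.44), and none of the 6 tested markers of other tissues was called.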

How the data were processed

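NEBNext libraries of RNA pulled down with tagged Ago2 were sequenced on an Illumina HiSeq, per the labels' protocols. The deposited table holds raw read counts per mature miRNA locus, not normalized. Per the submitters' processing notes, the tools were CASAVA 1.8.2 and TopHat2 2.0.9, with build mm9. Not given in the sources used here are the counting program, the miRNA annotation, strand use and how multi-mapped reads were treated. The 8 tested miRNAs that overlap another locus (miR-24-3p, miR-24-2-5p, miR-3074-5p, miR-299-3p, miR-136-5p, miR-136-3p, miR-337-5p and miR-3107-5p) are therefore uncertain, and loci of 1 name held near-equal counts.

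Each name was counted at its highest locus, and names with counts equal within 1% or 3 counts in all libraries (sum at least 200) were merged. CPM used the total count as library size. Log2 ratios used a pseudocount of 0.5 counts. miRNAs averaging 10 CPM or more were called by the exact conditional 95% interval of the ratio. Hairpins paired the 5p and 3p locus of 1 name with starts within 150 nt, and their odds ratios had exact intervals (Woolf's where all counts reached 500). Without molecular identifiers, intervals and zero limits reflect only counting error. Python 3.11.15, SciPy 1.17.1, pandas 2.3.3 and NumPy 2.4.6 were used, and the calls were tested on simulated data.

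RefSeq sequences (GRCm38.p6) were matched by name (745 names) or hairpin synonym (33), and kept where chromosome and length equalled the deposited locus. No sequence was assigned to 181 names. Reference coordinates were not used. The miRNAs named were the 12 largest called rises and falls (only 7 falls passed) averaging 100 CPM or more, the most abundant overall and by first base, up to 4 of each list, the 6 largest called hairpin differences in each direction, shared-seed sets, and exceptions of at least 1000 CPM. Other hairpins named were picked after their values were seen. The comparison and the lists were chosen with earlier results of these data known, and the arm-role split, the count with miR-431 inside its locus and the shared-seed pairs over every tested miRNA after the values were seen. Tried alternatives were the scaling, filters, thresholds, pseudocount and locus counting.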

Additional observations from a re-analysis of the deposited data

How the results depend on the processing

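No paired analysis was possible because each group has 1 library. Leaving out a replicate was not possible for the same reason. Of 86 alternative values over 14 results 77 were labelled as within the limits set, 9 as moved and 0 as reversed. These labels are coarse, and medians labelled as within the limits also changed in size or, near 0, in sign. The G over A median, for example, was 1.12 and became 0.29 with a pseudocount of 5. The count of miRNAs higher in GKT_GKGT was 87 and became 35 at a mean of at least 100 CPM (127 tested), 157 with no filter beyond 1 count (776 tested) and 32 at 4-fold. The count of lower miRNAs was 15 and became 38 with median-of-ratios scaling, 7 at a mean of at least 100 CPM, 28 with no filter beyond 1 count, 40 at 1.5-fold and 0 at 4-fold. The hairpins called for a change of arm share numbered 87 and became 36 at 4-fold. Fewer or more miRNAs tested, or another threshold, account for these counts by construction, except that for median-of-ratios scaling, which lowers every log2 ratio by 0.37. Of 63 alternative values for medians by first base or arm pair 60 kept their sign. The exceptions were the A-first median relative to all miRNAs, which was 0.003 without miR-292-5p in the total and 0.03 with every locus row counted, and hairpins with the same first base, -0.07 with a pseudocount of 5. Moves of the C over A, G over U and G over A arm pairs stand beside their values. With at least 50 counts on each arm, C over G had -1.17. The cause of these moves was not tested.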
